A study of Mus musculus with 25 samples.

Results

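The genes described here are 10 members of the gp130, STAT3 and SOCS group, chosen by name: the ligand *Lif*, the receptor genes *Lifr*, *Osmr*, *Il6ra* and *Il6st*, the transcription factor *Stat3*, the feedback inhibitors *Socs1*, *Socs2* and *Socs3*, and *Bcl3*. All 10 were found among the 52636 genes of the count table, and all 10 were among the 16340 genes that passed the filter on low counts. They were measured by RNA-seq in the *soleus*, a hindlimb muscle rich in slow fibers, of 25 C57BL/6 mice of 12 weeks. The 4 groups were WT mice at rest (n = 5), WT mice 60 minutes after exercise (n = 7), mD3AKO mice at rest (n = 7) and mD3AKO mice 60 minutes after exercise (n = 6). All mice, WT included, carried floxed *Dnmt3a* alleles, and the mD3AKO mice also carried a Cre transgene driven by the muscle creatine kinase promoter. The promoter drives the deletion of *Dnmt3a*, the gene of a de novo DNA methyltransferase, in muscle fibers, and which cells the remaining *Dnmt3a* RNA came from was not tested. Exercise was 30 minutes on a treadmill at 16 m/min and an incline of 5%, and resting mice spent 30 minutes in a sham arena. Each group held both sexes, with 12 females and 13 males in all, and mice are called here by the numbers of their labels.

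Gp130, encoded by *Il6st*, is the signaling chain shared by the receptors for IL-6, LIF, oncostatin M and related cytokines. A ligand binds a partner chain such as the IL-6 receptor, the LIF receptor or the oncostatin M receptor, the associated Janus kinases phosphorylate the receptor, and STAT3 is recruited, phosphorylated and carried to the nucleus. STAT3 switches on *Socs3*, whose product binds gp130 and the kinases and dampens the signal, so that *Socs3* RNA is a short-lived readout and a brake at once. In skeletal muscle this pathway is known from the IL-6 that working fibers release, and from LIF and satellite cell growth.

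*Dnmt3a* was checked first, as the gene deleted. It lay between 93.4 and 131 CPM (counts scaled to a common effective library size) in the 12 WT mice and between 34.5 and 53.9 CPM in the 13 mD3AKO mice, so that the genotypes did not overlap. Libraries held 22671457 to 37431801 counts. The myofiber markers *Acta1*, *Ckm*, *Ttn*, *Des* and *Mb* together reached 76628 to 141113 CPM. Summed markers of immune cells ranged from 69.1 to 319 CPM and those of neutrophils from 0.266 to 3.83 CPM, and the neutrophil marker *Ly6g* had 3 reads in all libraries together. In whole muscle, fewer cells of a type and less RNA per cell cannot be told apart. One library stood apart for these genes, that of mouse 19, an exercised mD3AKO male, which was singled out after its values were seen. Results that rest on it are given with and without it. The library of mouse 15, a rested mD3AKO male, had a TMM factor (the scaling of its total that sets most genes level across libraries) of 0.631 and an effective size of 14298424 counts, where the other 24 had factors of 0.911 to 1.16 and at least 26435238 counts. Without mouse 15 the exercise values were 0.48 (adjusted p = 0.0039) for *Il6ra*, 0.25 (adjusted p = 0.014) for *Osmr* and 0.21 (adjusted p = 0.051) for *Stat3*, and its part in calls lost without TMM factors was not tested.

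Levels differed widely between the members. Per kilobase of exon, the mean level over the 25 mice was 27.1 CPM for *Il6st*, 9.97 for *Lifr* and 9.09 for *Stat3*. Next came *Socs3* at 1.51, *Osmr* at 1.41, *Il6ra* at 1.40 and *Socs2* at 1.24 CPM per kilobase. The lowest levels per kilobase were those of *Bcl3* at 0.341, *Socs1* at 0.296 and *Lif* at 0.0777 CPM. The ranges over mice overlapped between *Lifr* and *Stat3*, between each neighboring pair from *Socs3* to *Socs2*, and between each neighboring pair from *Bcl3* to *Lif*. *Il6st* lay above all others without overlap. The genes at the bottom rest on few reads, with 3 to 21 per library for *Lif*, 3 to 25 for *Socs1* and 6 to 52 for *Bcl3*, against 4180 to 12245 for *Il6st*.

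**Figure D1:**
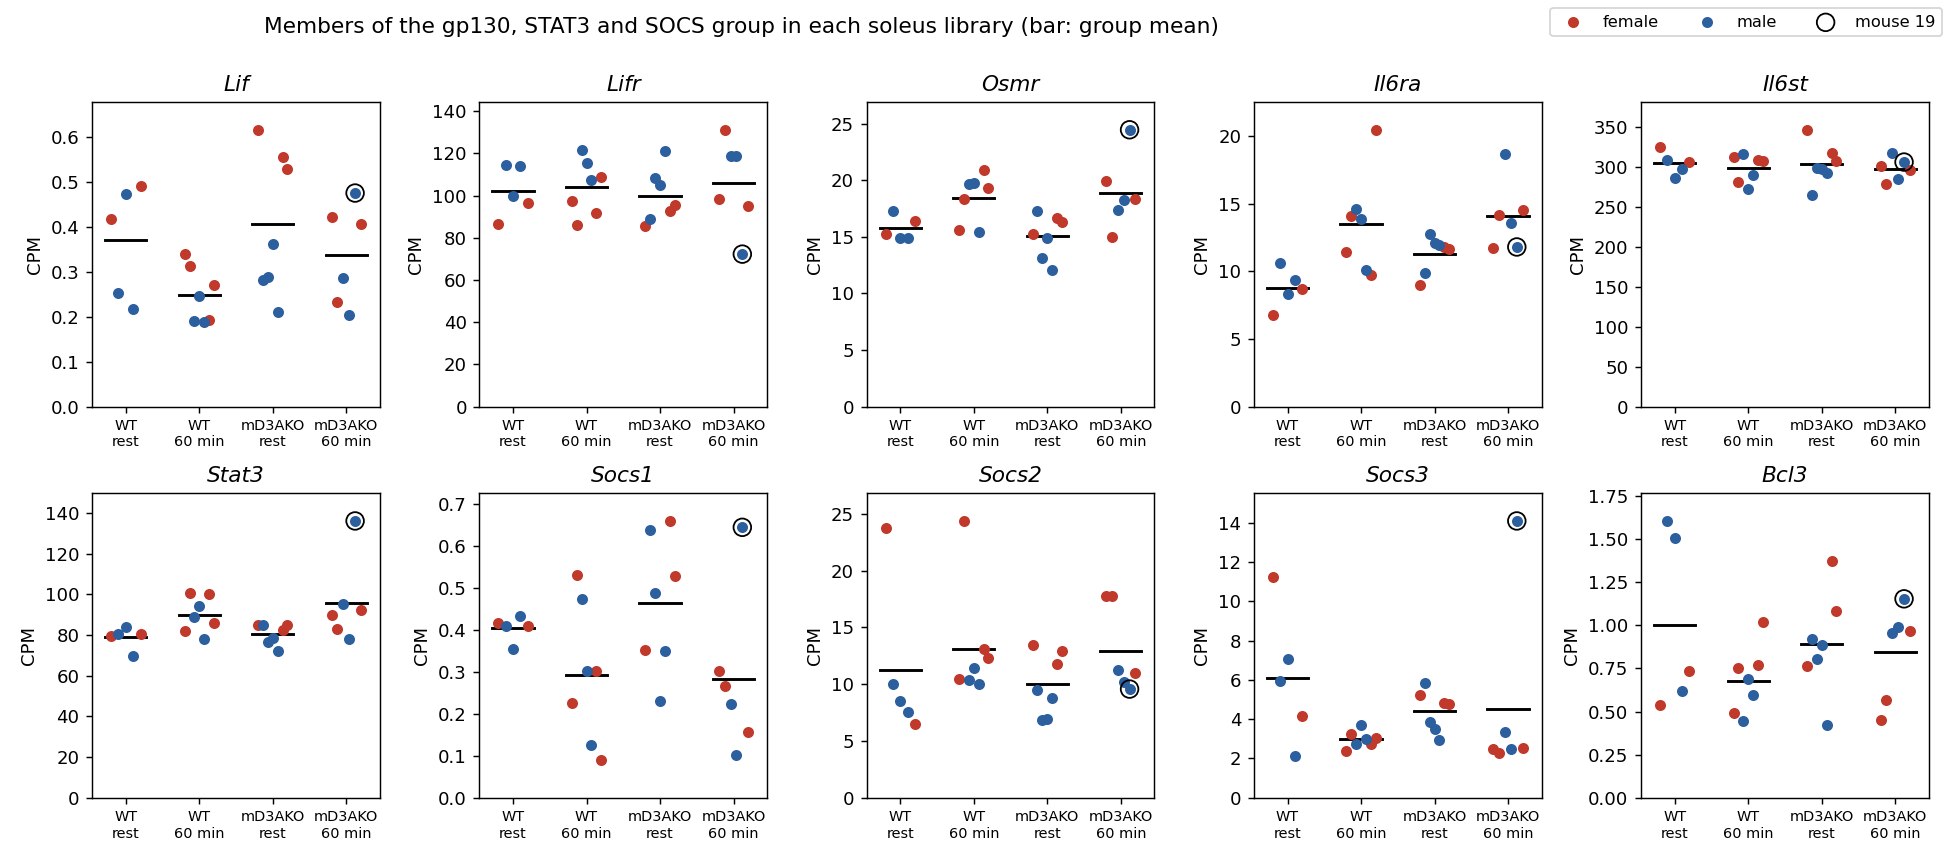
CPM of each member (y axis, linear from 0) in each of the 25 libraries by group (x axis), with females in red, males in blue, the group mean as a bar and mouse 19 circled. *Osmr*, *Il6ra* and *Stat3* sit higher after exercise, and the circled point tops *Stat3*, *Osmr* and *Socs3*.

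The first question was which members differ 60 minutes after exercise. With the genotypes averaged, 3 of 10 members passed an adjusted p of 0.05, and all 3 rose: the receptor genes *Il6ra* and *Osmr*, and *Stat3*. Among all 16340 genes tested, 10.4% passed in this comparison, and 5.7% passed as higher. The median log2 fold change over all tested genes was -0.00. The ligand gene *Lif*, the shared chain gene *Il6st*, *Lifr*, *Bcl3* and the 3 SOCS genes did not pass in the 25 mice, and 2 of these, *Socs1* and *Socs3*, passed as lower once mouse 19 was left out, a fit that called 5 of 10 members against 10.3% of 16305 genes.

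*Il6ra*, at chr3:89864059-89913196 on the minus strand of mm10, encodes the chain that binds IL-6. In WT mice at rest its levels were 6.77, 8.32, 8.74, 9.39 and 10.6 CPM, and in exercised WT mice they ran from 9.72 over a median of 13.9 to 20.5 CPM. In mD3AKO mice they ran from 9.00 over 11.8 to 12.7 CPM at rest and from 11.7 over 13.9 to 18.7 CPM after exercise. The ranges overlapped, with 8 of 13 exercised mice above every rested mouse and 11 of 13 above the median at rest. The main effect was a log2 fold change of 0.47 (SE 0.105, adjusted p = 0.0032 by edgeR), or 1.39-fold. The call was lost in each sex alone, while the log2 fold change stayed at 0.38 to 0.58 over all alternatives. Within WT mice alone the rise was 0.62 (SE 0.155, adjusted p = 0.019), a call lost without TMM factors (adjusted p = 0.085) and without mouse 1 (adjusted p = 0.070) or mouse 13, and within mD3AKO mice the value was 0.32 (SE 0.144, adjusted p = 0.24), while the difference between these responses, -0.30 (SE 0.21), did not pass (adjusted p = 1.00).

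*Osmr*, at chr15:6813577-6874969 on the minus strand, encodes the oncostatin M receptor. Its levels were 14.9, 14.9, 15.3, 16.4 and 17.3 CPM in WT mice at rest, and 15.4 to 20.9 CPM around a median of 19.3 in exercised WT mice. In mD3AKO mice they were 12.1 to 17.3 CPM (median 15.2) at rest and 15.0 to 24.5 CPM (median 18.3) after exercise. Of the exercised mice, 10 of 13 lay above every rested mouse and 12 of 13 above the median at rest. *Osmr* rose by a log2 fold change of 0.27 (SE 0.0709, adjusted p = 0.011), or 1.21-fold, and by 0.23 (SE 0.0644, adjusted p = 0.023) without mouse 19, over a range of adjusted p from 0.0032 to 0.48 in all alternatives. Within mD3AKO mice the rise just passed (0.32, SE 0.0974, adjusted p = 0.049), and within WT mice the value was 0.23 (SE 0.103, adjusted p = 0.34). The call within mD3AKO mice was lost in 19 of the 25 fits that left out a mouse, with 0.23 (SE 0.0908, adjusted p = 0.18) without mouse 19, and also with 8 groups, without TMM factors and without the filter.

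*Stat3*, at chr11:100885098-100939540 on the minus strand, encodes the transcription factor that gp130 activates. It lay at 69.9, 79.6, 80.6, 80.8 and 84.1 CPM in WT mice at rest and at 77.9 to 101 CPM (median 89.0) in exercised WT mice. In mD3AKO mice it lay at 72.2 to 85.2 CPM (median 82.6) at rest and at 78.2 to 136 CPM (median 91.1) after exercise. Of the exercised mice, 9 of 13 were above every rested mouse, and the highest, mouse 19, was 1.52 times the median of the other 12. The rise was the smallest of the 3, with a log2 fold change of 0.22 (SE 0.0676, adjusted p = 0.036), or 1.16-fold. Without mouse 19 it was 0.15 (SE 0.0491, adjusted p = 0.0492). The call was kept in 17 of the 25 fits that left out a mouse and lost in 8, with adjusted p values from 0.018 to 0.50 over all alternatives. Its last exon overlaps an exon of *Stat5a* on the opposite strand, which held 17972 reads over the 25 libraries against 70494 for *Stat3*, and whether counting used the strand is not given in the sources used here. Exons of *Il6ra* and *Bcl3* likewise overlap *Gm42809* and *Gm16175* on the opposite strand, which held 123 and 4 reads in all libraries together.

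**Figure D2:**
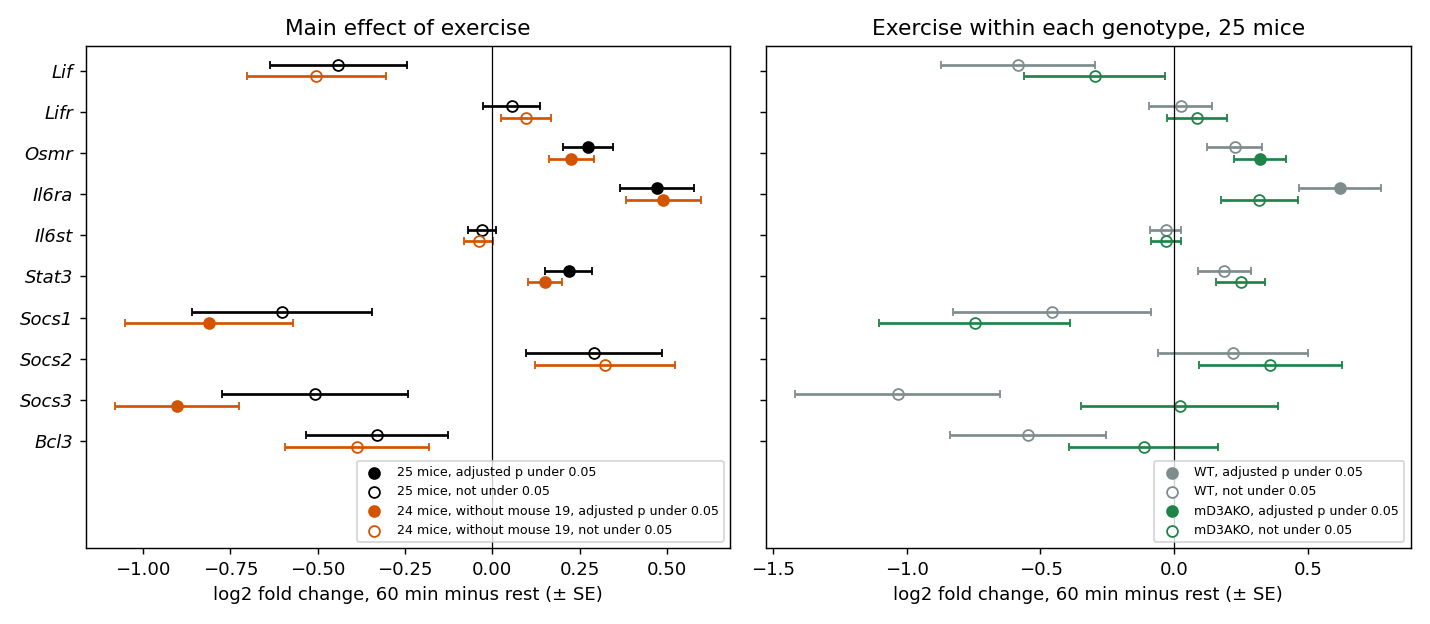
Log2 fold change 60 minutes after exercise against rest (x axis, ± SE) of each member (y axis). On the left is the main effect in 25 mice and in the 24 mice without mouse 19, and on the right the effect within WT and mD3AKO mice; filled points have an adjusted p under 0.05. *Il6ra*, *Osmr* and *Stat3* are filled in both main fits, and *Socs1* and *Socs3* only without mouse 19.

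*Socs3*, at chr11:117966079-117970047 on the minus strand, encodes the inhibitor of gp130 signaling. It was the member in which mouse 19 mattered most. Levels at rest were 2.13, 4.18, 5.92, 7.05 and 11.2 CPM in WT mice and 2.94 to 5.84 CPM (median 4.75) in mD3AKO mice. After exercise they were 2.38 to 3.68 CPM (median 2.98) in WT mice, and in mD3AKO mice 2.29 to 3.35 CPM in 5 mice and 14.1 CPM in mouse 19. The value of mouse 19 was the highest of all 25 libraries and 5.15 times the median of the other 12 exercised mice, while those 12 all lay below the median at rest of 4.79 CPM. In the 25 mice the log2 fold change of -0.51 (SE 0.267) did not pass (adjusted p = 0.28 by edgeR). Without mouse 19, which was singled out after these values were seen, *Socs3* fell by 0.90 (SE 0.178, adjusted p = 0.00099). Over all alternatives the adjusted p ran from 0.00099 to 1.00. Within WT mice, the group that mouse 19 is not part of, the value was -1.03 (SE 0.383, adjusted p = 0.18 with mouse 19 in the shared estimate of spread and 0.012 without it). Without mouse 1, the rested WT mouse at 11.2 CPM, the value in WT mice was -0.70 (SE 0.39, adjusted p = 0.48) and that in the 24 mice -0.34 (SE 0.263, adjusted p = 0.52). Within mD3AKO mice it was 0.02 (SE 0.368, adjusted p = 0.99), and -0.76 (SE 0.257, adjusted p = 0.095) without mouse 19.

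Promoter sequences were searched for the letters of a STAT-type motif. Windows of 300 bases, from 250 before to 50 after the RefSeq start site on GRCm38.p6 (the assembly of mm10), were given for 9 of the members, with a pair of windows for *Lifr*, and *Socs2* had no entry. The motif searched was TTCNNNGAA, which reads the same on both strands, and it was held by 1 of these 10 windows, that of *Socs3*, and by 8.30% of the 32851 windows of all genes. In *Socs3* it lies 154 to 146 bases before the start site, at chr11:117969512-117969520. The stretches from 250 to 101 bases before the start sites of *Socs3* and *Stat3* are shown 5′ to 3′ on the minus strand, since the stretch of *Socs3* holds the motif and that of *Stat3*, the gene of the factor itself, does not hold these letters, with the motif in capitals. A match is a description of these letters, not a measured binding site.
Socs3, chr11:117969467-117969616: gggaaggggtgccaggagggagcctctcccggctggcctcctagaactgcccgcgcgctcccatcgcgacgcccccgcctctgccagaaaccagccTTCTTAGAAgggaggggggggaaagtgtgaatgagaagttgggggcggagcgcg
Stat3, chr11:100939641-100939790: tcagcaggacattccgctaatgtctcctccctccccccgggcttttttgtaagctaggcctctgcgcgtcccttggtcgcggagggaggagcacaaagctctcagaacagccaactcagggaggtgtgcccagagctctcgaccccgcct

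*Socs1*, at chr16:10783808-10785536 on the minus strand, encodes another inhibitor of the Janus kinases and was close to the limit of detection. It lay at 0.354, 0.409, 0.410, 0.418 and 0.432 CPM in WT mice at rest and at 0.0901 to 0.531 CPM (median 0.302) in exercised WT mice. In mD3AKO mice it lay at 0.230 to 0.660 CPM (median 0.489) at rest and at 0.102 to 0.645 CPM (median 0.245) after exercise, where mouse 19 was the highest. Of the exercised mice 6 of 13 were below every rested mouse and 10 of 13 below the median at rest. The log2 fold change of -0.60 (SE 0.258) did not pass (adjusted p = 0.16). Without mouse 19, which was singled out after its values were seen, *Socs1* fell by 0.81 (SE 0.24, adjusted p = 0.029). This was the only 1 of the alternatives in which *Socs1* passed, with adjusted p values from 0.029 to 0.65.

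*Socs2*, at chr10:95385362-95417180 on the minus strand, is better known as the brake on growth hormone signaling through STAT5. At rest it lay at 6.50, 7.57, 8.56, 10.0 and 23.7 CPM in WT mice and at 6.87 to 13.5 CPM (median 9.49) in mD3AKO mice. After exercise it lay at 10.0 to 24.4 CPM (median 11.4) in WT mice and at 9.57 to 17.8 CPM (median 11.1) in mD3AKO mice. All 13 exercised mice were above the median at rest of 9.15 CPM, but the ranges overlapped and the log2 fold change of 0.29 (SE 0.195) did not pass (adjusted p = 0.44). Without mouse 1, the WT mouse at 23.7 CPM, the value was 0.52 (SE 0.162, adjusted p = 0.038), and without mouse 5, the exercised WT mouse at 24.4 CPM, it was 0.18 (adjusted p = 0.65), in a range of adjusted p from 0.038 to 0.96 over all alternatives. Within WT mice the value of 0.22 (SE 0.282, adjusted p = 0.91) ran from 0.0020 without mouse 5 to 0.69 without mouse 1, and passed in neither.

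The remaining members did not pass for exercise in any alternative. *Lif*, at chr11:4257557-4272514 on the plus strand, lay at 0.210 to 0.616 CPM at rest and 0.188 to 0.475 CPM after exercise, and 10 of 13 exercised mice were below the median at rest (log2 fold change -0.44, SE 0.196, adjusted p = 0.18). *Bcl3*, at chr7:19808462-19822770 on the minus strand, encodes a nuclear partner of NF-kB and is a known target of STAT3. It lay at 0.420 to 1.61 CPM at rest and 0.443 to 1.15 CPM after exercise (log2 fold change -0.33, SE 0.202, adjusted p = 0.38). The receptor genes *Il6st*, at chr13:112464070-112510086, and *Lifr*, at chr15:7129559-7197489, both on the plus strand, gave values near 0. *Il6st* lay at 265 to 347 CPM at rest and 272 to 318 CPM after exercise (-0.03, SE 0.0405, adjusted p = 0.76), and *Lifr* at 85.7 to 121 CPM and 72.3 to 131 CPM (0.06, SE 0.0819, adjusted p = 0.79).

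Cell markers were measured beside these changes, where 10.4% of all tested genes passed. Of 8 endothelial markers 5 fell and 1, *Flt1*, rose after exercise, and their sum ran from 455 to 606 CPM at rest and from 422 to 537 CPM after exercise. Of 9 immune markers tested none passed (0 by edgeR, 0 by DESeq2 and 0 at an unadjusted p under 0.05), with sums of 89.3 to 319 CPM at rest and 69.1 to 244 CPM after exercise, and of 6 fibroblast markers none passed by edgeR (2 at an unadjusted p under 0.05) and 1 by DESeq2, with sums of 880 to 4413 and 938 to 2087 CPM. Of 3 tested neutrophil markers *S100a9* fell, and in 16 of the 25 fits that left out a mouse no neutrophil marker passed as lower. The summed level of the 6 listed ran from 1.02 to 3.83 CPM at rest and from 0.266 to 2.18 CPM after exercise. The satellite cell markers *Pax7* and *Myf5* fell, with summed levels of 5 markers of 24.3 to 43.8 CPM at rest and 24.4 to 39.6 CPM after exercise. Of 5 adipocyte markers *Plin4* rose (0.37, SE 0.0942, adjusted p = 0.0089), with sums of 310 to 779 CPM at rest and 396 to 1007 CPM after exercise. Of 5 mural cell markers *Pdgfrb* fell by 0.46 (SE 0.0833, adjusted p = 0.00036), with sums of 1012 to 1229 CPM and 1024 to 1222 CPM. In each of the 25 fits that left out a mouse the adipocyte list held 1 higher call. The mural cell list held 1 lower call in each, and both were counted by list, not by gene. In the fit without mouse 19, where *Socs1* and *Socs3* passed as lower, 2 of 3 neutrophil markers fell. The median log2 fold change of these markers was -1.30 there and -1.01 in the 25 mice. The part of these cells in the changes of *Il6ra*, *Osmr*, *Stat3*, *Socs1* and *Socs3* was not tested.

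Other genes of the pathway were taken from lists chosen with earlier results of these data known. Of 24 known STAT3 targets 23 were tested, and 9 rose and none fell after exercise, where 10.4% of all tested genes passed and 5.7% passed as higher, with a median log2 fold change of 0.52 over the list and of 0.34 without mouse 19. The list held 9 or 10 passing genes whichever mouse was left out. *Fos*, an immediate early gene with many inducers, rose by 3.35 (SE 0.531, adjusted p = 6.7e-05), and the metallothionein genes *Mt2* and *Mt1*, which bind zinc, rose by 2.64 (SE 0.291) and 1.68 (SE 0.155). *Cebpd*, a transcription factor of the acute phase response, rose by 1.86 (SE 0.163), and its relative *Cebpb* by 0.64 (SE 0.108). *Cdkn1a*, a cell cycle inhibitor, rose by 0.72 (SE 0.162), the kinase gene *Pim3* by 0.59 (SE 0.0786) and the repressor gene *Bcl6* by 0.56 (SE 0.114). The target genes *Junb* (0.68, SE 0.333, adjusted p = 0.23), *Timp1* (0.40, adjusted p = 0.55) and *Pim1* (0.29, adjusted p = 0.41) did not pass.

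The layers above and around STAT3 were read against the same 10.4% of all tested genes. None of 6 tested ligand genes, 4 Janus kinase genes, 5 other STAT genes, 5 other genes of the SOCS family and 6 genes of the growth hormone and STAT5 axis passed after exercise (0 by edgeR and 0 by DESeq2), and 1 Janus kinase gene and 2 STAT genes had an unadjusted p under 0.05 with each tool. *Il6*, *Il11* and *Osm* were too low to be tested, with 73, 79 and 43 reads in all libraries together. Of 5 further receptor genes *Cntfr*, the receptor chain for ciliary neurotrophic factor, rose by 1.27 (SE 0.16, adjusted p = 2.3e-06). Of 10 other brakes on the pathway the adaptor gene *Sh2b3* rose by 0.27 (SE 0.0651, adjusted p = 0.0057). Another of them, *Pias3*, whose product binds STAT3, fell by 0.25 (SE 0.078, adjusted p = 0.036). No gene of this list passed as lower in 11 of the 25 fits that left out a mouse. Of 10 NF-kB genes the inhibitor gene *Nfkbia* rose by 0.74 (SE 0.0632, adjusted p = 3.3e-09) and *Tnfaip3*, another brake on NF-kB, fell by 0.84 (SE 0.117, adjusted p = 1.2e-05).

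**Figure D3:**
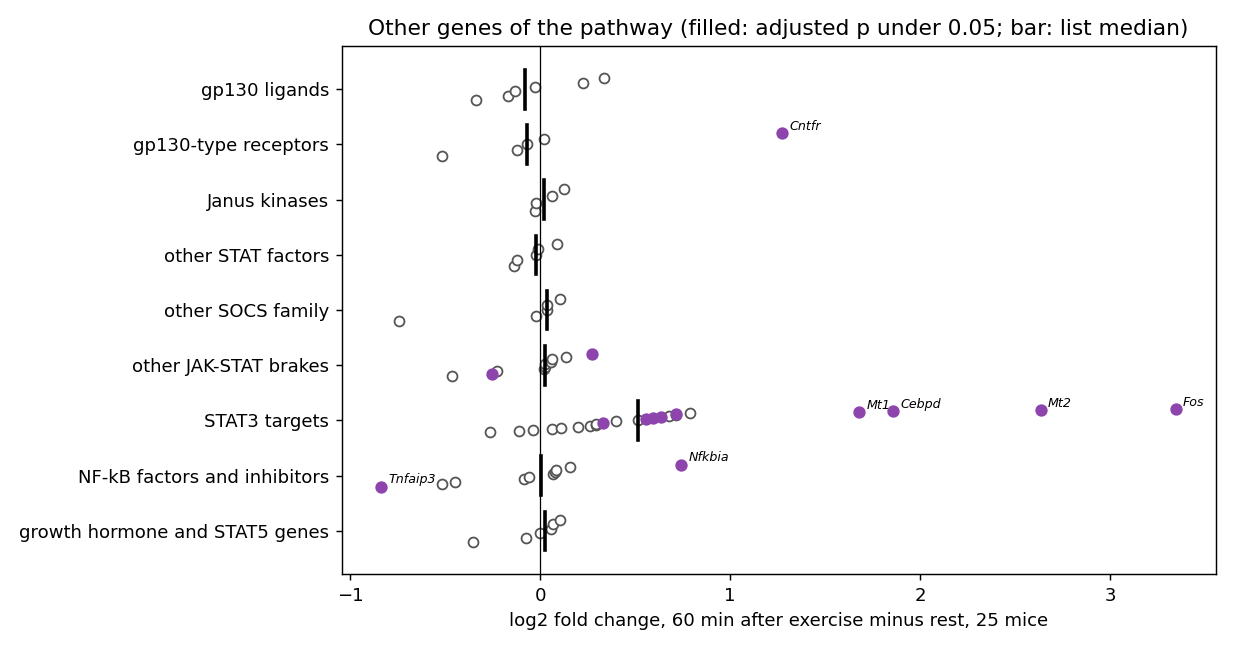
Log2 fold change 60 minutes after exercise against rest in 25 mice (x axis) of every tested gene of each list (y axis), filled where the adjusted p was under 0.05, with the list median as a bar. The STAT3 targets reach from below 0 to 3.35 with 9 filled points, while lists such as the Janus kinases have none.

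Within the genotypes taken alone, 1 member passed in WT mice (*Il6ra*) and 1 in mD3AKO mice (*Osmr*), where 3.59% and 6.02% of all tested genes passed. Whether a response differed between genotypes was tested directly, and no member passed the interaction (0 of 10 by edgeR, 0 at an unadjusted p under 0.05, 0 by DESeq2), as was true of all genes (0%, with 403 genes at an unadjusted p under 0.05 by edgeR, and 0 called by DESeq2). The largest difference was that of *Socs3*, at 1.06 (SE 0.531, adjusted p = 1.00), and it was 0.28 (SE 0.354) without mouse 19.

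No member passed for genotype (0 of 10 by edgeR, 0 at an unadjusted p under 0.05, and 0 called by DESeq2, with 1 at an unadjusted p under 0.05 by DESeq2), and 0.269% of all tested genes passed, 44 genes in all. The member nearest to passing was *Il6ra*, with a log2 fold change of mD3AKO over WT of 0.22 (SE 0.105, adjusted p = 0.80). Its rested mD3AKO mice reached 9.00 to 12.7 CPM where the rested WT mice reached 6.77 to 10.6 CPM (0.37, SE 0.154, adjusted p = 1.00), and after exercise the value was 0.07 (SE 0.143). For *Stat3*, *Osmr*, *Il6st* and *Lifr* the genotype difference was 0.06 (SE 0.0675), -0.01 (SE 0.0707), -0.00 (SE 0.0405) and -0.01 (SE 0.0818). Of the 74 tested genes of the pathway lists none passed for genotype (0 by edgeR and 0 by DESeq2, with 6 at an unadjusted p under 0.05 by each). Of the cell markers the satellite cell marker *Pax7* was higher in mD3AKO mice (0.48, SE 0.105, adjusted p = 0.038), the only 1 of 5 satellite cell markers called, by edgeR and by DESeq2.

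The gene lists were chosen with earlier results of these data known, so that the counts below are a description, not a test. Mouse 19 was singled out after its values were seen. It was the highest of 25 libraries for 3 of 10 members and for 9.54% of all tested genes, a larger share than for any other mouse (mouse 7 followed with 9.06%). Among the tested STAT3 targets it was highest for 10 of 23, where no other mouse was highest for more than 3. It was highest for 6 of 10 NF-kB genes and 4 of 10 other brakes, where no other mouse was highest for more than 1. It was also highest for 3 of 5 myofiber markers, where no other mouse was highest for more than 1. It was highest for 1 gene each of the tested ligands, further receptors, Janus kinases and other STAT genes, for 0 of 5 other genes of the SOCS family and for 0 of 6 genes of the growth hormone and STAT5 axis.

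Against the median of the other 12 exercised mice, mouse 19 had *Socs3* at 5.15 times, *Socs1* at 2.62 times (19 reads), *Lif* at 1.84 times (14 reads), *Bcl3* at 1.61 times (34 reads), *Stat3* at 1.52 times and *Osmr* at 1.33 times. Over all 25 libraries it was highest for *Socs3*, *Stat3* and *Osmr*, and rested mice reached higher levels of *Socs1* (0.660 CPM), *Lif* (0.616 CPM) and *Bcl3* (1.61 CPM). *Il6st* was at 1.02 times, *Socs2* at 0.846 times, *Il6ra* at 0.844 times, and *Lifr* at 0.669 times, the lowest of the 25 libraries at 72.3 CPM. Of the STAT3 targets, *Timp1*, an inhibitor of matrix proteases, reached 18.2 CPM against 2.08 to 7.44 CPM in the other 12. The metallothionein gene *Mt2* reached 22.3 CPM against 2.95 to 9.04 CPM. The kinase gene *Pim1* reached 15.4 CPM against 2.92 to 5.33 CPM, and *Tnfrsf12a*, the receptor for TWEAK, 221 CPM against 24.7 to 129 CPM. Among other targets called for exercise, *Mt1* was at 1.81 times the median of the other 12, *Fos* at 1.55, *Cdkn1a* at 1.54, *Cebpd* at 1.29, *Pim3* at 0.985, *Cebpb* at 0.938 and *Bcl6* at 0.786 times.

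The ligand genes went both ways in this library. *Il6*, *Il11*, *Osm* and *Il27* were at their highest of the 25 libraries, at few reads, and *Cntf* (2 reads) and *Ctf1* (6.14 CPM) at their lowest. *Il6* had 14 reads (0.475 CPM, with 0 to 0.0997 CPM in the other 12 exercised mice), *Il11* 10 reads (0.339 CPM) and *Osm* 8 reads (0.271 CPM), and the highest counts in the other 24 libraries were 12, 6 and 4. *Jak1* reached 174 CPM against 111 to 140 CPM in the other 12 exercised mice. Against the same mice, the phosphatase genes *Ptpn1* and *Ptpn2*, brakes on the Janus kinases, reached 23.5 and 15.8 CPM against at most 18.2 and 14.2 CPM. The other brakes at their highest were *Ptpn6*, at 4.04 CPM (119 reads) against at most 2.47, and *Usp18*, at 3.77 CPM (111 reads) against at most 1.75. The receptor gene *Csf3r* reached 1.32 CPM (39 reads) against at most 0.779, and *Stat2* 9.81 CPM against at most 7.05. The summed immune markers of mouse 19 were 244 CPM, second of the 25 libraries, and it was highest for 2 of the 9 tested. The macrophage marker *Cd68* was at 32.4 CPM (956 reads) against a median of 3.42 CPM over the 25 libraries. *Itgam* was at 2.17 CPM (64 reads) against 0.754 CPM. For the other tested immune markers mouse 19 was not highest. The highest counts of *Cd163*, *C1qa*, *Csf1r*, *Mrc1* and *Adgre1* over the 25 libraries were 826, 1189, 2033, 1900 and 635. Those of *Ptprc* and *Lyz2* were 612 and 5100. Mouse 19 had 419, 574, 1023, 1108 and 251 reads of the former, and 390 and 2399 of the latter. Its neutrophil sum of 2.17 CPM was sixth, with *Cxcr2* at its highest (0.509 CPM, 15 reads, against a median of 0.0587 CPM) and *Ly6g* at 0 reads, and its endothelial sum of 473 CPM eighteenth. The part of these cells in its profile was not tested.

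**Figure D4:**
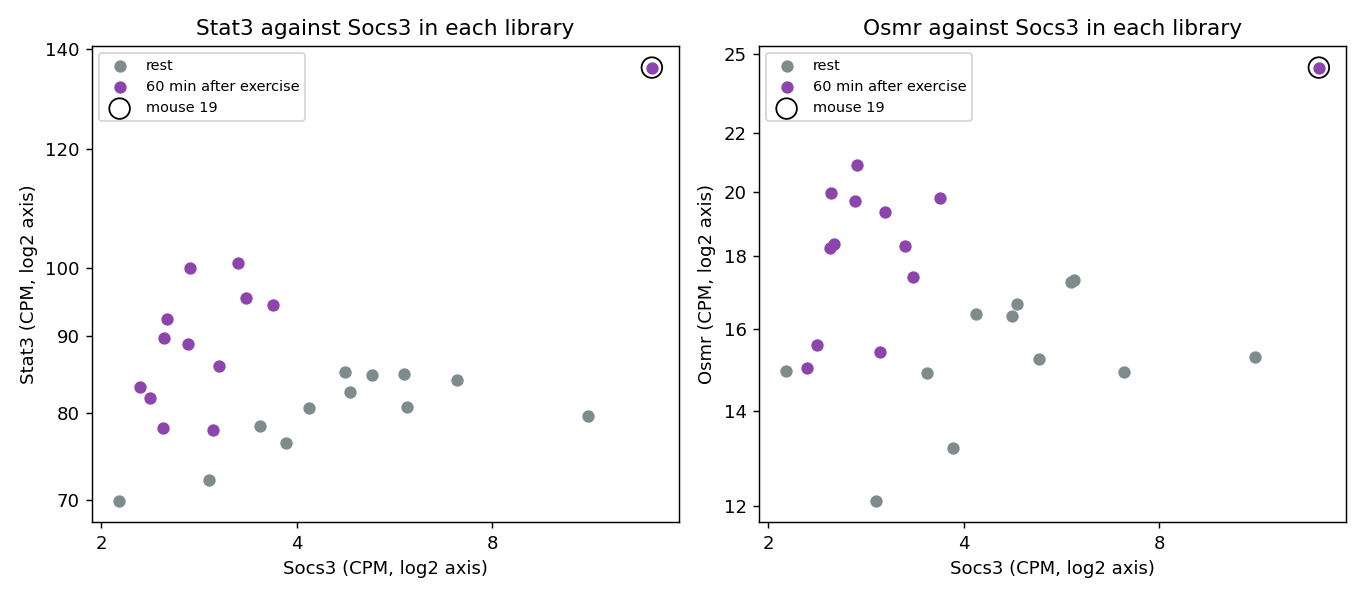
*Stat3* (left) and *Osmr* (right) against *Socs3*, each point 1 library and all axes in CPM on log2 scales, with rested mice in gray, exercised mice in purple and mouse 19 circled. At *Socs3* of 14.1 CPM mouse 19 has *Stat3* of 136 and *Osmr* of 24.5 CPM, apart from the other exercised mice at 2.29 to 3.68 CPM of *Socs3*.

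Whether the other members went with *Socs3* from mouse to mouse was examined separately in the 13 exercised and the 12 rested mice, on log2 CPM, with 36 permutation tests of 100000 resamples in all. None passed after Benjamini-Hochberg adjustment over these tests, and 13 had an unadjusted p under 0.05. In exercised mice *Stat3* had a Pearson's r of 0.86 with *Socs3* (permutation p = 0.0038, adjusted 0.11) and a Spearman's rho of 0.66 (permutation p = 0.017, adjusted 0.11), and r was 0.46 without mice 19 and 16, the mice farthest from the median of *Socs3*, so that the size of r rested in part on those mice. For *Osmr* in exercised mice r was 0.67 (permutation p = 0.012, adjusted 0.11), rho was 0.46 (permutation p = 0.12, adjusted 0.24), and r was 0.21 without those mice. In rested mice *Stat3* had an r of 0.68 (permutation p = 0.015, adjusted 0.11) and a rho of 0.62 (permutation p = 0.037, adjusted 0.14), and r was 0.82 in the 10 mice left without mice 1 and 14. *Socs2* had an r of 0.71 in rested mice (permutation p = 0.012, adjusted 0.11), 0.40 without those mice, and of -0.27 in exercised mice. *Lifr* went the other way in both sets. In exercised mice its r was -0.63 (permutation p = 0.034, adjusted 0.14), -0.19 without mice 19 and 16, and rho was -0.36 (permutation p = 0.23, adjusted 0.38). In rested mice its r was -0.65 (permutation p = 0.019, adjusted 0.11), -0.49 without mice 1 and 14, and rho was -0.55 (permutation p = 0.067, adjusted 0.17). For *Il6ra* r was -0.59 in rested mice (permutation p = 0.043, adjusted 0.14), -0.64 without mice 1 and 14, and -0.08 in exercised mice. In exercised mice *Socs1* and *Bcl3* had an r of 0.52 and 0.50 (permutation p = 0.043 and 0.036, both adjusted 0.14), and 0.08 and 0.41 without mice 19 and 16.

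*Socs2* differed between the sexes, and was the only member to do so (1 of 10, against 8.15% of the 17389 genes tested in the fit with sex). It lay at 6.50 to 24.4 CPM (median 13.0) in the 12 females and at 6.87 to 11.4 CPM (median 9.57) in the 13 males. The log2 fold change of males against females was -0.63 (SE 0.162, adjusted p = 0.018). It was -0.32 (SE 0.128, adjusted p = 0.15) without mouse 1, the only mouse whose loss ended the call, in a range of adjusted p from 0.00054 to 0.15 over all alternatives. Without mouse 19, *Lif*, as it also did without mouse 13, passed as lower in males (-0.58, SE 0.17, adjusted p = 0.037) and *Lifr* as higher (0.23, SE 0.0618, adjusted p = 0.024).

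The mouse numbers split the females. Those numbered 1 to 6 had *Socs2* at 10.4, 13.5, 17.7, 17.8, 23.7 and 24.4 CPM, and those numbered 20 to 25 at 6.50, 11.0, 11.7, 12.3, 12.9 and 13.1 CPM, while all males were numbered 7 to 19. Set against the same males, females 1 to 6 gave a log2 fold change of -0.89 (SE 0.136, adjusted p = 0.00075) and females 20 to 25 of -0.24 (SE 0.112, adjusted p = 0.15). What the numbers stand for is not given in the labels, and sex and run of numbers cannot be fully told apart. Other lists held calls for sex in the same fit, where 8.15% of all 17389 tested genes passed. Whether a list held more calls than that share was not tested. Of 6 genes of the growth hormone and STAT5 axis 2 were lower in males, *Prlr*, the prolactin receptor (-0.88, SE 0.227, adjusted p = 0.019), and *Igfals*, a carrier of insulin-like growth factors (-0.78, SE 0.123, adjusted p = 0.00030), with a list median of -0.22. Of 6 slow fiber markers 5 were lower in males (list median -0.36), with sums of 28515 to 46166 CPM in females and 23205 to 30178 CPM in males. Of 6 fast fiber markers 3 were higher (list median 0.39), with sums of 15244 to 26544 CPM and 16710 to 31130 CPM. Of 5 satellite cell markers 2 were lower (list median -0.09), with sums of 27.5 to 43.8 CPM and 24.3 to 37.3 CPM. The myofiber markers *Ckm* and *Mb* (2 of 5) were higher in males, and 1 of 5 adipocyte markers, *Plin4*, and 1 of 5 tendon markers, *Mkx*, were lower (list medians -0.46 and -0.35). Of the 23 STAT3 targets 5 were higher in males, among them *Fos* (adjusted p = 0.0068) and *Junb* (1.26, adjusted p = 0.0013), and *Cdkn1a* was lower. Of the other pathway lists, 1 of 4 Janus kinase genes (*Jak2*), 1 of 10 other brakes (*Ptpn11*) and 1 of 5 other SOCS genes (*Socs5*) were higher in males. Of 5 further receptor genes 1, *Lepr*, was lower. None of 8 ligand, 5 other STAT and 10 NF-kB genes passed. The part of these cells and fibers in the sex difference of *Socs2* was not tested. *Cish*, another gene that STAT5 induces, was named after its values were seen: it was highest in mice 1 and 2, at 26.9 and 17.7 CPM, and lay at 1.12 to 10.7 CPM in the other 23.

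**Figure D5:**
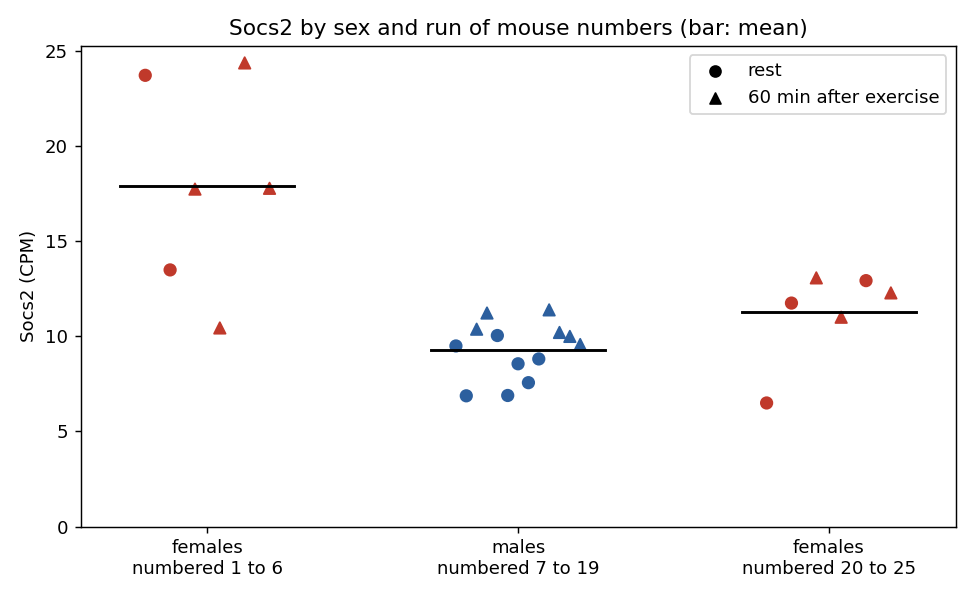
*Socs2* in CPM (y axis, from 0) in females numbered 1 to 6, males numbered 7 to 19 and females numbered 20 to 25 (x axis), with circles for rest, triangles for 60 minutes after exercise and the mean as a bar. The first females reach 24.4 CPM, and the later females stay at or below 13.1 CPM, closer to the males.

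No member passed the test of whether the response to exercise differed between the sexes (0 of 10 by edgeR, and 0 by DESeq2, where 0.046% of all tested genes passed by edgeR). At an unadjusted p under 0.05 there was 1 member with each tool. In the edgeR fit this was *Socs3* (male minus female response 1.22, SE 0.478, adjusted p = 1.00 by edgeR across all genes), and the value was 0.63 (SE 0.354) without mouse 19 and 0.77 (SE 0.491) without mouse 1. With females alone, mouse 1 among them, its exercise effect was -1.23 (adjusted p = 0.0039), and with males alone, mouse 19 among them, -0.0039 (adjusted p = 1.00).

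Genes of like pattern were sought for the 3 members that rose, as the 3 tested genes with the highest Pearson's r of log2 CPM over the 25 libraries after the group means were subtracted. Both genes of a pair come from the same libraries, so that their points share each library's depth, and no p is given. For *Stat3* these were *Sbno2* (r = 0.91, and 0.83 without mouse 19), *Ptpn1* (0.86 and 0.77) and *Phc2* (0.86 and 0.79). For *Osmr* they were *Sgms2* (0.89 and 0.87), *AI504432* (0.89 and 0.86) and *Anxa2* (0.85 and 0.80). For *Il6ra* they were *Col4a6* (0.82 and 0.81), *Gm45819* (0.81 and 0.80) and *Podn* (0.80 and 0.79).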

How the data were processed

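Total RNA of 1 *soleus* per mouse was depleted of ribosomal RNA, made into stranded libraries and read as paired ends. The authors aligned the reads to mm10 and deposited raw counts per gene and library, without normalization or filter. The submitters' processing notes name FastQC 0.11.5, STAR 2.5.3a and featureCounts 1.5.3, and whether counting used the strand is not given in the sources used here, so reads of genes that overlap on opposite strands may be shared. Symbols came from GENCODE release 21 (52403 of 52636 genes) and promoter sequences from RefSeq.

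Counts were tested with edgeR 4.0.16 (R 4.3.3) using TMM factors, filterByExpr over 4 groups (minimum count 10, minimum total 15), 1 mean per group and the quasi-likelihood F test, with Benjamini-Hochberg adjustment over all genes tested and a threshold of 0.05. Standard errors (SE) were derived from each fold change and its F statistic. Sex was tested in a fit with 8 groups. Log2 CPM used a prior count of 2. The procedure was tested on simulated data. Alternatives were DESeq2 1.42.0, no TMM factors, no filter, sex or runs of mouse numbers as terms, each sex alone, and each mouse left out. The sex fits with 1 run of females were added after seeing the data.

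The 67 pairs of replicates were not identical in any case (lowest chi-square per gene 14.5). At the median depth of 32189360 counts, genes near 1 CPM rest on few reads. The authors state that mice shared cages with same-sex littermates. The labels do not say beyond the mouse number which mice shared a cage or how libraries were batched. The members, the gene lists and the named genes (every member, list genes called for exercise with at most 8 per list or called for genotype, 3 genes of like pattern for each member called, and *Dnmt3a*) were chosen with earlier results of these data known.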

Additional observations from a re-analysis of the deposited data

Results flagged for a closer look

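The outlier test compared the gap between the highest or lowest mouse of a group and its nearest neighbor with the range of that group, on log2 CPM, for the 10 members in the 4 groups. Of these 40 sets, 4 held a mouse past the 95% critical value, and chance alone marks about 1 in 20 such sets. In exercised mD3AKO mice, mouse 19 was marked for *Socs3* (gap 0.793 of the range, 14.1 CPM) and for *Stat3* (gap 0.639 of the range, 136 CPM). In exercised WT mice, mouse 5 was marked for *Socs2* (gap 0.699 of the range, 24.4 CPM), and it is one of the females numbered 1 to 6. In WT mice at rest, mouse 13 was marked as the lowest for *Socs1* (gap 0.723 of the range, 0.354 CPM), where the other 4 mice lay within 0.409 to 0.432 CPM. Read counts were 12 in mouse 13 and 13 to 15 in the other 4, too close to set mouse 13 apart.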

How the results depend on the processing

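No paired analysis was possible because the mouse numbers run from 1 to 25 and the groups share none. Member values were also compared under the alternatives other than single mice left out. These included the fits with 1 sex alone or 1 run of females, which hold fewer mice. Of 360 such values, 332 kept direction and side of the threshold. Among the rest, 14 lost a call, 1 gained a call and 13 changed sign, and the cause was not tested. Low counts limit *Lif*, *Socs1* and *Bcl3*, and single mice limit *Socs3* (mice 19 and 1) and *Socs2* (mice 1 and 5).

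For exercise, 1699 genes and 3 members were called. Without TMM factors these were 927 and 1, in males only 966 and 0, and in females only 512 and 1 (*Socs3*), fits with fewer mice. Leaving out each mouse gave 2 to 5 members, 5 without mouse 19. *Stat3* lost its call without TMM factors, without the filter and in each sex alone, and without mice 1, 5, 8, 12, 14, 15, 16 or 22 in turn. *Osmr* lost it without TMM factors and in each sex alone, and *Il6ra* in each sex alone. *Il6st* was 0.015 in males only.

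In WT mice, 293 genes and 0 members were called without TMM factors, and 0 to 2 members with a mouse left out (0 without mouse 1 or 13, 2 without mouse 19). In mD3AKO mice, 484 genes and 0 members were called without TMM factors, 0 members with 8 groups and 0 without the filter, and 0 to 1 with a mouse left out (*Osmr* in 6 of 25 fits). There *Socs3* was -0.16 with 8 groups, -0.060 without TMM factors, -0.0083 with sex as a term and -0.036 with runs as a term, and ran from -0.76 (without mouse 19) to 0.15. Ranges over left-out mice also spanned 0 for *Lifr* in WT mice (-0.029 to 0.070), and for *Il6st* (-0.061 to 0.0037) and *Bcl3* (-0.23 to 0.020) in mD3AKO mice.

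For genotype, 44 genes were called, and 81 by DESeq2, 29 without TMM factors, 72 with sex and 97 with runs as a term, and 0 members in each. *Socs3* was -0.021 with 8 groups. With a mouse left out the genotype values spanned 0 for *Lifr* (-0.045 to 0.035), *Osmr* (-0.056 to 0.017), *Il6st* (-0.024 to 0.010), *Stat3* (-0.0042 to 0.086), *Socs1* (-0.12 to 0.18), *Socs2* (-0.17 to 0.14) and *Socs3* (-0.32 to 0.25). The interaction of *Il6st* was -0.018 without TMM factors and -0.0076 without the filter. With a mouse left out the interactions of *Lifr* (-0.0091 to 0.15), *Il6st* (-0.032 to 0.040), *Stat3* (-0.066 to 0.11) and *Socs2* (-0.33 to 0.36) spanned 0.

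For sex, 1418 genes were called, 729 with females 1 to 6 alone, 2337 with females 20 to 25 alone, and 834 (without mouse 20) to 1740 with a mouse left out. These fits with 1 run of females were chosen after seeing the data. The members called were 0 with females 20 to 25 alone and 0 to 3 with a mouse left out. With females 20 to 25 alone the sex difference was -0.093 for *Osmr*, -0.051 for *Il6ra*, -0.042 for *Stat3* and -0.25 for *Bcl3*, and with females 1 to 6 alone -0.0026 for *Socs1*. With a mouse left out it spanned 0 for *Osmr* (-0.032 to 0.037), *Stat3* (-0.050 to 0.054), *Socs1* (-0.18 to 0.17) and *Socs3* (-0.11 to 0.41). The sex by exercise test called 8 genes, 19 by DESeq2, and 3 to 17 with a mouse left out, where *Socs1* (-0.11 to 0.61), *Socs2* (-0.44 to 0.51) and *Bcl3* (-0.30 to 0.048) spanned 0.

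After subtraction of genotype and sex means, r of *Stat3* with *Socs3* was 0.88 in exercised and 0.76 in rested mice. That of *Socs2* in exercised mice turned from -0.27 to 0.015, and that of *Il6st* in rested mice from 0.22 to -0.061.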
